A study of Mus musculus with 1536 samples.

Results

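The opioid and nociceptin receptor genes are a family of 4 genes, Oprm1, Oprk1, Oprd1 and Oprl1, which were followed through single serotonin neurons of the mouse raphe. They were chosen by name, and they are 4 of the 53263 genes in the deposited table and 4 of the 25522 genes that had a read in at least 3 cells. The table holds 999 cells from C57BL/6J mice aged 40 to 45 days, labelled as a Sert-tdTomato-Cre cross with Ai14, and every cell is of this genotype. In these mice Cre is made where the serotonin transporter gene (Slc6a4, or Sert) is active and switches on the red fluorescent protein tdTomato, so the label records past as well as present use of Slc6a4, which itself had a read in 997 of the 999 cells. The labels divide the cells into 290 cells of the Principal DR dissection, on 5 plates, and 709 cells of the All DR dissection, on 11 plates. By the methods of the study, Principal DR is the dorsal raphe without its caudal extension, and the other dissection took in the whole dorsal raphe and the median raphe. No label names an animal, so each dissection counts as 1 sample, no test was possible, and plates are given as the only spread that can be seen. Plates and animals cannot be told apart, and every plate holds 1 dissection only.

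Opioid receptors are G protein-coupled receptors that act through inhibitory G proteins of the Gi and Go type. When bound, they slow adenylyl cyclase, open inwardly rectifying potassium channels and hold back calcium channels, which quiets a neuron and its terminals. Oprm1 encodes the mu receptor, the target of morphine and of beta-endorphin and enkephalin. Oprd1 encodes the delta receptor, which prefers enkephalin, and Oprk1 the kappa receptor, which prefers dynorphin. Oprl1 encodes the nociceptin receptor, a relative that binds nociceptin and hardly binds the classical opioids. Nociceptin is known to hyperpolarise dorsal raphe neurons, and kappa receptors of serotonin neurons are known for a part in the aversion that follows stress.

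The 4 genes share much of their coding sequence, which bears on whether reads of 1 could be counted for another. By GENCODE M21, an annotation made on GRCm38 (mm10), the share of aligned coding bases that were identical ran from 61.6% between Oprk1 and Oprl1 to 67.6% between Oprm1 and Oprd1. The most alike 90 coding bases of all 4 are shown here 5′ to 3′ on the coding strand, with capitals for the 61 bases that are identical in every receptor. In each gene the run crosses an exon junction, so its ends lie an intron apart in the genome, at chr10:6789127-6828942 (+) for Oprm1, chr1:5589274-5598647 (+) for Oprk1, chr4:132117411-132144190 (-) for Oprd1 and chr2:181715915-181718434 (+) for Oprl1.
Oprm1: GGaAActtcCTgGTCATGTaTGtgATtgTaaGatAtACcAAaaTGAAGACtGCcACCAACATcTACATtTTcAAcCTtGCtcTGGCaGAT
Oprk1: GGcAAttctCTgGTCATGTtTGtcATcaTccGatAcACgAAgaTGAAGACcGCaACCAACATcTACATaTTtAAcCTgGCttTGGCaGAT
Oprd1: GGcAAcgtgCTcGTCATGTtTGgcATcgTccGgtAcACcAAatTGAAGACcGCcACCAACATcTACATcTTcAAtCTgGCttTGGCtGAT
Oprl1: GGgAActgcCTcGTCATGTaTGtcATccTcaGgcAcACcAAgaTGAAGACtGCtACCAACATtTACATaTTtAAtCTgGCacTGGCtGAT
Even here the capitals are broken up every few bases. The longest exact run that any pair of receptors shared over the coding sequence was 25 bases, between Oprk1 and Oprl1, against reads of 75 bases. No window of 75 bases in the annotated transcripts of 1 receptor occurred in another.

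The genes lie on 4 chromosomes. Oprm1 spans chr10:6758506-7038198 (+), Oprk1 chr1:5588466-5606131 (+), Oprd1 chr4:132110726-132144486 (-) and Oprl1 chr2:181715016-181720985 (+). The counting ignored strand, and the exons of Oprm1 share 96 bases, 1.19% of their length, with Ipcef1, a gene on the opposite strand. Of the 9390 windows of 75 bases in Oprm1 transcripts, 27 also occurred in Ipcef1 (0.288%). Gm10945 also lies within Oprm1 but shares 0 exon bases with it. Rgs19, which encodes a regulator that ends G protein signals, lies 21.0 kb before Oprl1 and shares no exon with it.

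Oprl1 was read in nearly every serotonin neuron, and the other 3 receptors were each read in a minority. Values are CPM, the reads of a gene scaled to the same total of reads on genes in every cell, and a cell was counted for a gene from 1 read. Oprl1 had a read in 985 of 999 cells (98.6%, exact 95% interval 97.7 to 99.2%), Oprk1 in 169 (16.9%, 14.6 to 19.4%), Oprm1 in 146 (14.6%, 12.5 to 17.0%) and Oprd1 in 42 (4.20%, 3.05 to 5.64%). These intervals hold counting error only. Cells had a median of 827283 reads on genes (96834 to 2780443), and Tph2 and Fev, which define serotonin neurons, were read in all 999. After thinning to 250000 reads, which left out 9 shallower cells, the shares of the 990 cells were 98.6%, 15.4%, 12.5% and 3.64% in the same order.

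Compared per kb of exon, which is needed to set levels of different genes side by side, the mean over all cells was 32.6 CPM per kb for Oprl1, 0.406 for Oprk1, 0.343 for Oprm1 and 0.148 for Oprd1. The exon length is that of all annotated transcripts joined, so it overstates any single transcript. Oprk1 and Oprm1 are neighbours in this order, and their plate means overlapped widely, from 0 to 6.86 CPM and from 0.678 to 4.27 CPM. Oprl1 stood clear of the others on every plate, with plate means between 91.6 and 174 CPM.

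The reads of the sparse receptors lay in few cells, and most of these cells had at least 5 reads. Among cells with a read, the median was 17.2 CPM for Oprk1, 11.0 CPM for Oprm1 and 9.42 CPM for Oprd1, and the highest cells reached 109.5, 149.7 and 59.5 CPM. In reads, these medians were 15, 9 and 8 per cell. At least 5 reads were found in 136 of the 169 Oprk1 cells, 100 of the 146 Oprm1 cells and 32 of the 42 Oprd1 cells. At least 10 CPM was reached in 120, 77 and 20 of them. In the Principal DR, 16 of 23 Oprk1 cells and 16 of 29 Oprm1 cells had at least 5 reads. Oprl1 varied far less between cells, with a standard deviation of 0.558 times its mean (122 CPM) against 3.16 for Oprk1, 3.97 for Oprm1 and 6.22 for Oprd1. A cell without a read may still hold the transcript, so shares are those of cells with a read at this depth.

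The sparse receptors were read more often in the All DR dissection, which takes in the median raphe and the caudal dorsal raphe, than in the Principal DR. Oprk1 was read in 146 of 709 cells (20.6%, 17.7 to 23.8%) against 23 of 290 (7.93%, 5.09 to 11.7%). Oprm1 was read in 117 (16.5%, 13.8 to 19.4%) against 29 (10.0%, 6.80 to 14.0%). Oprd1 was read in 40 (5.64%, 4.06 to 7.60%) against 2 (0.690%, 0.0836 to 2.47%). Oprl1 was at 98.9% and 97.9%. The median depth was 869546 and 755926 reads. Thinned to 250000 reads, the pairs were 18.8% and 6.92% for Oprk1, 14.6% and 7.61% for Oprm1, and 4.99% and 0.346% for Oprd1.

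Plates of a dissection differed widely. The Oprk1 share ran from 0% to 15.3% over the 5 Principal DR plates and from 0% to 30.0% over the 11 All DR plates, and 2 and 1 of those plates had no cell with a read. Without plate SER13 the Principal DR share of Oprk1 was 4.88%. The Oprm1 share ran from 3.57% to 16.1% and from 3.70% to 23.0%. Oprd1 was read on 2 of the 5 Principal DR plates, in 1 cell each, and on all 11 All DR plates, where it ran from 1.35% to 14.8%. The dissections therefore overlapped in plate shares for each of the 4 genes.

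**Figure D1:**
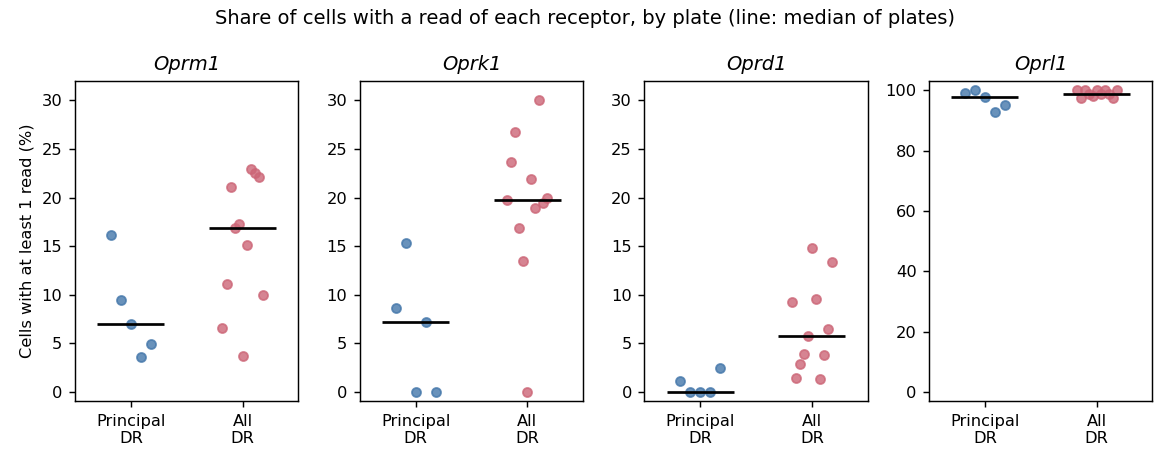
Share of cells with at least 1 read (%, vertical axis) of each receptor gene, 1 point a plate, for the 5 Principal DR plates and the 11 All DR plates. Black lines are medians over plates, and Oprl1 has its own scale. The medians are 6.98% and 16.9% for Oprm1, 7.14% and 19.7% for Oprk1, 0% and 5.77% for Oprd1, and 97.7% and 98.8% for Oprl1.

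In mean level, Oprm1 was 3.42 CPM in All DR and 1.12 CPM in Principal DR cells, a ratio of 2.09-fold after adding 1 CPM to each mean. Oprk1 was 4.57 and 1.63 CPM (2.11-fold), Oprd1 0.824 and 0.0302 CPM (1.77-fold), and Oprl1 126 and 114 CPM (1.10-fold). All ratios of levels here are of means plus 1 CPM, which understates those of low genes, and at least 2-fold was taken as a difference, with no test. As a difference of mean log2(CPM + 1) over cells, 10 of the 11 receptor ratios past 2-fold came under it, all but Oprk1 with Irx2. Between the dissections 2.44% of all genes passed it, and 2 of the 4 receptors. Without plate SER25, SER40 or SER12, the log2 ratio of Oprk1 was 0.93, 0.94 or 0.97, under the 1 that 2-fold needs, and without SER13 it was 1.67. The log2 ratio of Oprm1 was 0.64 without the cells with 5 or more caudal markers described below. Without the cells that had Irx2 or Zeb2, markers mostly of All DR cells, the log2 ratio was 0.17 for Oprm1, 0.68 for Oprk1 and 0.01 for Oprd1.

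Most cells held Oprl1 alone of the family, and combinations were mostly Oprl1 with 1 other member. In the Principal DR, 233 of 290 cells (80.3%) had reads of Oprl1 only, 26 of Oprm1 and Oprl1, 20 of Oprk1 and Oprl1, 2 of Oprd1 and Oprl1, and 6 of no receptor. In the All DR dissection, 435 of 709 cells (61.4%) had reads of Oprl1 only, 111 of Oprk1 and Oprl1, 87 of Oprm1 and Oprl1, and 33 of Oprd1 and Oprl1. Cells with 3 receptors numbered 3 of 290 and 35 of 709, and 0 of 999 cells had all 4, which allows a share of up to 0.369%. At least 1 of Oprm1, Oprk1 and Oprd1 was read in 268 All DR cells (37.8%, 34.2 to 41.5%) and 51 Principal DR cells (17.6%, 13.4 to 22.5%). Cells with 2 or more receptors had no deeper libraries, with a median of 793053 reads against 844136 in cells with 1.

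**Figure D2:**
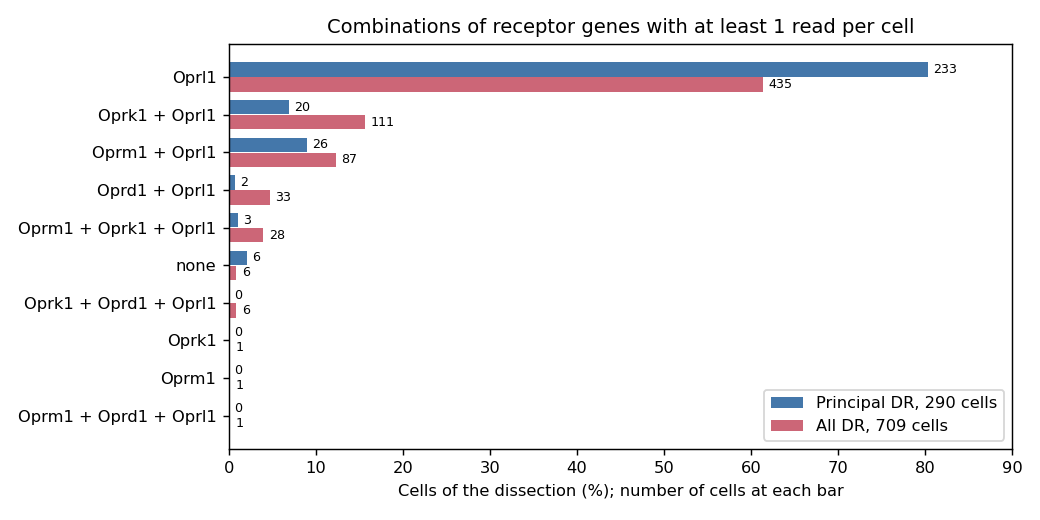
Share of cells (%, horizontal axis) with each combination of receptor genes at 1 read or more, in 290 Principal DR cells (blue) and 709 All DR cells (red), with the number of cells at each bar. Oprl1 alone is the longest bar in both dissections, with 233 and 435 cells.

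Oprk1 was read in like shares of cells with and without Oprm1, and Oprm1 and Oprd1 seldom met. In the All DR dissection, Oprk1 was found in 28 of 117 cells with Oprm1 (23.9%, 16.5 to 32.7%) and in 118 of 592 without it (19.9%, 16.8 to 23.4%). Of the 28 cells with both, 17 had Irx2, and in these 28 cells the means were 16.9 CPM of Oprm1 and 28.7 CPM of Oprk1. Oprd1 was read in 1 of 117 cells with Oprm1 (0.855%, 0.0216 to 4.67%) and in 39 of 592 without it (6.59%, 4.73 to 8.90%). Oprd1 with Oprk1 was found in 6 cells, 5 of which had Irx2.

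Cells were then divided by marker genes: Slc17a8, which encodes the vesicular glutamate transporter Vglut3, Gad1 or Gad2, which make GABA, the transcription factor genes Zeb2 and Irx2, and Crhr2, a receptor for urocortins. A cell was put in a set by 1 read of the marker, and each set was compared with the other cells of its dissection where both sides had at least 20 cells. A larger share of cells with Slc17a8 had Oprk1, and a smaller share of cells with Gad1 or Gad2, than of the other cells. Among Principal DR cells, Oprk1 was read in 18 of 131 cells with Slc17a8 (13.7%, 8.35 to 20.8%) and in 5 of 159 without it (3.14%, 1.03 to 7.19%), at 2.83 and 0.649 CPM. This was 2.32-fold, higher on 3 plates and lower on 0 of 5, the rest having no read. In the other dissection it was read in 122 of 518 (23.6%, 20.0 to 27.4%) and 24 of 191 (12.6%, 8.22 to 18.1%), but the means were close, at 4.81 and 3.91 CPM (1.18-fold).

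With Gad1 or Gad2 the difference was clearer. Oprk1 was read in 14 of 164 All DR cells with either gene (8.54%, 4.75 to 13.9%) and in 132 of 545 without (24.2%, 20.7 to 28.0%), at 1.45 and 5.50 CPM. The level was 2.65-fold lower with the marker, and lower on 10 of 11 plates and higher on none. Principal DR values were 5 of 183 cells with either gene (2.73%, 0.893 to 6.26%) and 18 of 107 without (16.8%, 10.3 to 25.3%), at 1.09 and 2.56 CPM (1.70-fold lower), and 3 plates were lower and 0 higher. Sorted by both markers, Oprk1 was read in 26.1% of 429 All DR cells with Slc17a8 only, 11.2% of 89 with both markers and 5.33% of 75 with Gad1 or Gad2 only. The same order held in the Principal DR, at 17.9% of 84, 6.38% of 47 and 1.47% of 136 cells. Cells with neither marker had Oprk1 in 17.2% of 116 (10.9 to 25.4%) in the All DR and 13.0% of 23 (2.78 to 33.6%) in the Principal DR dissection. Their means of 5.76 and 2.87 CPM were as high as those of cells with Slc17a8 only, 5.43 and 2.48 CPM.

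The mean of Oprm1 was close with and without Gad1 or Gad2, at 4.31 CPM with and 3.16 CPM without in All DR cells and 1.16 and 1.05 CPM in the Principal DR. Its shares were 18.9% and 15.8%, and 8.20% and 13.1%. In the Principal DR, Oprm1 was read in 14.3% of 84 cells with Slc17a8 only, 19.1% of 47 with both markers, 4.41% of 136 with Gad1 or Gad2 only and 8.70% of 23 with neither. Their means were 1.15, 3.21, 0.452 and 0.675 CPM. In the same order, All DR cells had Oprm1 in 17.2%, 19.1%, 18.7% and 10.3%. With Slc17a8 it was read in 21 of 131 Principal DR cells (16.0%, 10.2 to 23.5%) and, without it, in 8 of 159 (5.03%, 2.20 to 9.67%), higher on 3 of 5 plates and lower on 2, at 1.89 and 0.484 CPM (1.95-fold). Thinned, these shares were 11.5% and 4.40%. Without plate SER25 or SER39 the log2 ratio was 1.19 or 1.12, past 2-fold. The All DR shares were 17.6% and 13.6%. Of all genes, 1.49% passed 2-fold with Slc17a8 in the Principal DR and 0.925% in All DR cells, and 2.00% and 0.889% with Gad1 or Gad2. Of the 4 receptors 1, 0, 0 and 1 passed in these comparisons, Oprk1 each time.

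Zeb2 and Irx2 divided the receptors most. Zeb2 had a read in 147 All DR cells and only 3 Principal DR cells, and Irx2 in 154 and 10, so both were examined in the All DR dissection. Oprd1 was read in 28 of 147 cells with Zeb2 (19.0%, 13.0 to 26.3%) and in 12 of 562 without it (2.14%, 1.11 to 3.70%), at 3.03 and 0.247 CPM. This was 3.23-fold higher, on 8 of 11 plates. Oprk1 was the other way round, in 9 cells with Zeb2 (6.12%, 2.84 to 11.3%) and in 137 without it (24.4%, 20.9 to 28.1%), at 1.60 and 5.34 CPM (2.44-fold lower), and lower on 9 of 11 plates. Without plate SER48 its log2 ratio was -0.91.

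Oprm1 was read in like shares of cells with and without Zeb2, 15.6% and 16.7%, yet its mean was 7.07 CPM with and 2.47 CPM without (2.33-fold higher, on 8 of 11 plates). This level rested on a small set described next, and without that set the log2 ratio turned from 1.22 to -0.43. Without plate SER50 or SER52 it was 0.83 or 0.91. With Zeb2, 4.56% of all genes passed 2-fold, and 3 of the 4 receptors. Median reads per cell were 884326 with and 869119 without Zeb2.

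The cells with Zeb2 divided further by Piezo2. This gene, which encodes a mechanically gated ion channel, had a read in 106 of them. In these 106 cells Oprm1 and Oprk1 had 0 reads each, which allows a share of up to 3.42%, while Oprd1 was read in 27 (25.5%, 17.5 to 34.9%) at a mean of 3.97 CPM. Cells with all of Zeb2, Piezo2 and Oprd1 were on 9 of 11 plates. Across every All DR cell with Piezo2, 121 in all, Oprm1 and Oprk1 were also at 0. The 27 cells were 27 of the 40 Oprd1 cells of the dissection. The planned set was Zeb2 with Piezo2 or the receptor gene Met, and held 133 cells. It had Oprm1 in 20 (15.0%), Oprk1 in 4 (3.01%) and Oprd1 in 27 (20.3%). Sets by Piezo2, and the sets by 5 or more caudal markers and by Tacr3 below, were chosen after the receptor values had been seen, so they are described and support nothing further.

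The 41 cells with Zeb2 but no read of Piezo2 had Oprm1 in 23 (56.1%, 39.7 to 71.5%), Oprk1 in 9 and Oprd1 in 1. The caudal dorsal raphe has marker genes drawn from clusters of these same cells, so the list is not independent of them. Of these, 7 were counted in each cell: Tecrl, S1pr3, P2ry1, Gipr, Sox13, Calcr and Rxfp1. The study itself names Oprm1, with Gipr, Calcr, Rxfp1 and Tacr3, as a receptor that its caudal cluster preferred. Oprm1 in cells with these markers is therefore not an independent finding. Of the 23 cells with Zeb2 and Oprm1, 20 had 5 or more of the 7 markers. Of 22 All DR cells with 5 or more, 20 had Oprm1 (90.9%, 70.8 to 98.9%), at a lowest, median and highest value of 0, 32.4 and 115 CPM. The other 687 cells had Oprm1 in 97 (14.1%), at a mean of 2.31 CPM against 38.2 CPM. On the 4 plates with at least 3 such cells the level was higher on all 4. These 22 cells were 3.10% of the dissection and held 37.9% of its Oprm1 reads.

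The same 22 cells had Zeb2 in 21, Met, the hepatocyte growth factor receptor, in 20, Slc17a8 in 22, and Tacr3, the receptor for neurokinin B, in 21, while Piezo2 and Irx2 were at 0 and Pdyn was read in 1. Oprk1 was read in 4 of them (18.2%) and Oprd1 in 1, close to the 20.7% and 5.68% of the other cells. Only 1 of the 290 Principal DR cells had 5 or more of the 7, without a read of Oprm1.

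**Figure D3:**
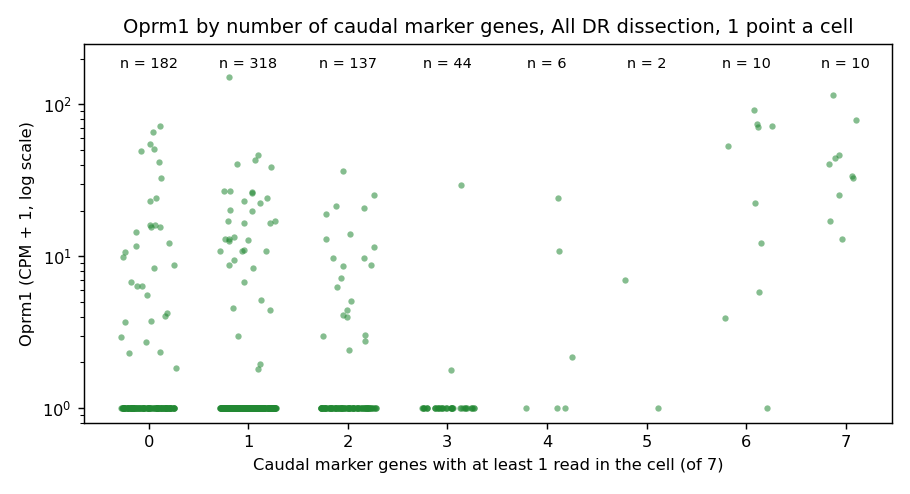
Oprm1 (CPM + 1, log scale, vertical axis) in each of the 709 All DR cells by the number of caudal marker genes with a read (0 to 7, horizontal axis), with the number of cells above. Points at 1 are cells with 0 reads, and 19 of the 20 cells with 6 or 7 markers lie above it.

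Irx2 marked the cells richest in Oprk1. Oprk1 was read in 66 of 154 cells with Irx2 (42.9%, 34.9 to 51.1%) and in 80 of 555 without it (14.4%, 11.6 to 17.6%), at 11.5 and 2.65 CPM. This was 3.42-fold, higher on 10 of 11 plates and lower on none, and SER56 had no Oprk1 read at all. Oprm1 was read in 45 (29.2%, 22.2 to 37.1%) and 72 (13.0%, 10.3 to 16.1%) of the same cells, at 6.39 and 2.6 CPM (2.05-fold), and was higher on 10 of 11 plates. Without plate SER48, SER51 or SER64, or without the highest cell on each side, the log2 ratio of Oprm1 was 0.81, 0.92, 0.97 or 0.93. Without the cells with 5 or more caudal markers, which lie outside the Irx2 cells, it was 1.80. Oprd1 was at 7.14% with and 5.23% without Irx2. Of all genes 1.54% passed 2-fold with Irx2, and 2 of the 4 receptors. Cells with Irx2 had fewer reads, with a median of 785380 against 910859, and thinned shares of Oprk1 were 38.8% and 13.3%.

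Within the Irx2 cells the order of the receptors differed with Nmbr, the neuromedin B receptor gene. In 131 cells without Nmbr, Oprk1 was read in 61 (46.6%, 37.8 to 55.5%) at 12.4 CPM and Oprm1 in 35 (26.7%, 19.4 to 35.1%) at 6.16 CPM. In 23 cells with Nmbr, Oprm1 was read in 10 (43.5%, 23.2 to 65.5%) at 7.68 CPM and Oprk1 in 5 (21.7%, 7.46 to 43.7%) at 6.28 CPM. The intervals overlap for both receptors. Oprd1 was read in 11 of the 131 and 0 of the 23 cells, which allows up to 14.8%.

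Crhr2 marked cells with little Oprd1. It was read among All DR cells in 3 of 289 with Crhr2 (1.04%, 0.215 to 3.00%) and 37 of 420 without it (8.81%, 6.28 to 11.9%), at 0.177 and 1.27 CPM, lower on 9 of 11 plates. At 1.93-fold this stayed under 2-fold. Without plate SER52 or SER60, the log2 ratio was -1.08 or -1.11. Oprk1 was read more often with Crhr2, in 27.0% against 16.2% of All DR cells and 12.8% against 4.62% of Principal DR cells, but All DR means were close, at 4.79 and 4.41 CPM. Without plate SER13, the Principal DR log2 ratio was 1.03. Split by Npy2r, a receptor for neuropeptide Y, Oprk1 was read in 55 of 167 All DR cells with Crhr2 and no Npy2r (32.9%, 25.9 to 40.6%) and 23 of 122 with it (18.9%, 12.3 to 26.9%), at 6.71 and 2.16 CPM. The Principal DR values ran the other way, with 5 of 49 (10.2%, 3.40 to 22.2%) and 10 of 68 (14.7%, 7.28 to 25.4%), at 1.41 and 2.99 CPM, and these intervals overlap. Of all genes 1.16% in the Principal DR and 1.28% in All DR cells passed 2-fold with Crhr2, and 0 of the 4 receptors. 

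Oprk1 was read in few cells with Trh, the gene of thyrotropin-releasing hormone, as in cells with Gad1 or Gad2 only. Cells with Trh were not compared with cells without it. Of 40 All DR cells with Trh, Oprm1 was read in 2, Oprk1 in 1 and Oprd1 in 1, and 36 had none of these. Among Principal DR cells, 98 had Trh, and Oprk1 was read in 1 (1.02%, 0.0258 to 5.55%) but Oprm1 in 11 (11.2%, 5.74 to 19.2%). In 99 All DR cells with Npas3, a transcription factor gene, and no Zeb2, Irx2 or Crhr2, Oprk1 was read in 18 (18.2%), Oprm1 in 9 (9.09%) and Oprd1 in 1. The set by Zeb2 without Piezo2 and Met and with 2 or more caudal markers held 3 All DR cells and is not described further.

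**Figure D4:**
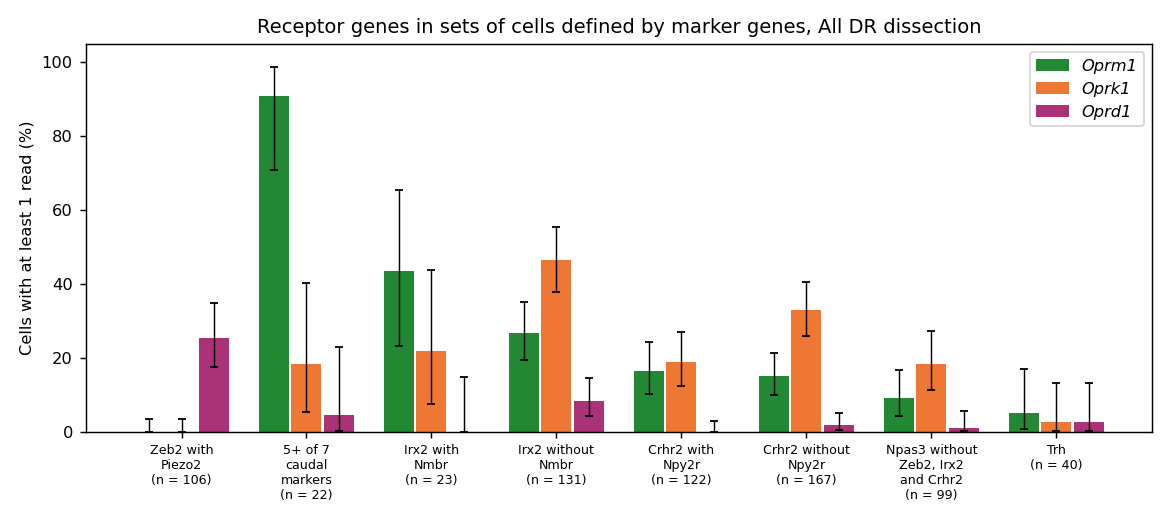
Share of All DR cells with at least 1 read (%, vertical axis) of Oprm1, Oprk1 and Oprd1 in 8 sets of cells defined by marker genes, with the number of cells below each. Error bars are exact 95% intervals, and sets may share cells. Oprd1 leads in cells with Zeb2 and Piezo2 (25.5%), Oprm1 in cells with 5 or more caudal markers (90.9%), and Oprk1 in cells with Irx2 and no Nmbr (46.6%). The sets by Zeb2 with Piezo2 and by 5 or more caudal markers were chosen after the receptor values had been seen.

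Oprl1 was present in every set at like levels. Its mean ran from 102 CPM in Principal DR cells with Crhr2 and no Npy2r to 155 CPM in All DR cells with Irx2 and Nmbr, over sets of 20 cells or more. In no comparison by marker, peptide or dissection did it pass 2-fold. It was lower with Crhr2 on 5 of 5 Principal DR plates (104 and 121 CPM) and 9 of 11 All DR plates (115 and 133 CPM), and higher with Irx2 on 9 of 11 plates (140 and 122 CPM). The 14 cells without an Oprl1 read were 8 All DR and 6 Principal DR cells. The 6 All DR cells with no receptor read had a median of 294631 reads, against 873261 in cells with at least 1 receptor. The 6 Principal DR cells had 846074 against 755926. The part of library depth or quality in the missing reads was not tested.

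The ligand genes were next set beside their receptors. Pdyn, which encodes the precursor of dynorphins, had a read in 132 of 290 Principal DR cells (45.5%) and 201 of 709 All DR cells (28.4%). Its receptor Oprk1 was the less frequent in these cells. Among All DR cells Oprk1 was read in 24 of 201 with Pdyn (11.9%, 7.80 to 17.2%) and 122 of 508 without (24.0%, 20.4 to 28.0%), at 2.85 and 5.25 CPM. The 1.62-fold lower level was lower on 7 and higher on 2 of 10 plates. The Principal DR counts were 8 of 132 (6.06%, 2.65 to 11.6%) and 15 of 158 (9.49%, 5.41 to 15.2%), with intervals that overlap. In all, 32 of 999 cells had both genes, 9.61% of the Pdyn cells and 18.9% of the Oprk1 cells.

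Oprd1 and Pdyn were almost apart in All DR cells. Oprd1 was read in 1 of 201 cells with Pdyn (0.498%, 0.0126 to 2.74%) and in 39 of 508 without (7.68%, 5.52 to 10.3%), at 0.0269 and 1.14 CPM. The level was 2.08-fold lower, on 10 of 10 plates, and without plate SER57 the log2 ratio was -0.97. All DR plates held only 1 to 7 cells with Oprd1 each, so the direction on a plate rests on few cells. The same limit holds for the other plate counts of Oprd1. Of all genes 1.25% passed 2-fold with Pdyn in All DR cells and 1 of the 4 receptors, against 0.752% and 0 receptors in the Principal DR.

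Oprm1 went with Pdyn in the Principal DR. There it was read in 21 of 132 cells with Pdyn (15.9%, 10.1 to 23.3%) and in 8 of 158 without (5.06%, 2.21 to 9.73%), at 1.74 and 0.597 CPM (1.72-fold), higher on 4 of 5 plates. Without plate SER13 the log2 ratio was 1.53, past 2-fold. The All DR shares were 16.9% and 16.3%, and whether the dissections differ was not tested. Among cells that had Pdyn, those with Oprm1 had a higher median of Pdyn, with the plates of a dissection pooled. In the Principal DR the median of Pdyn was 192 CPM in 21 cells with Oprm1 (9.82 to 1493 CPM) and 62.2 CPM in 111 without (1.09 to 987 CPM). In All DR cells it was 166 CPM in 34 (0.805 to 920 CPM) and 51.0 CPM in 167 (0.669 to 1529 CPM). The ranges overlap widely, and the mean was higher with Oprm1 on 5 of the 8 plates that had at least 3 cells of each kind. These were 1 of 2 Principal DR and 4 of 6 All DR plates. Plate SER12 held 15 of the 29 Principal DR cells with Oprm1 and had a mean of 136 CPM of Pdyn. The other Principal DR plates had means of 32.6 to 49.0 CPM, so the difference in Principal DR medians cannot be told apart from that plate.

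**Figure D5:**
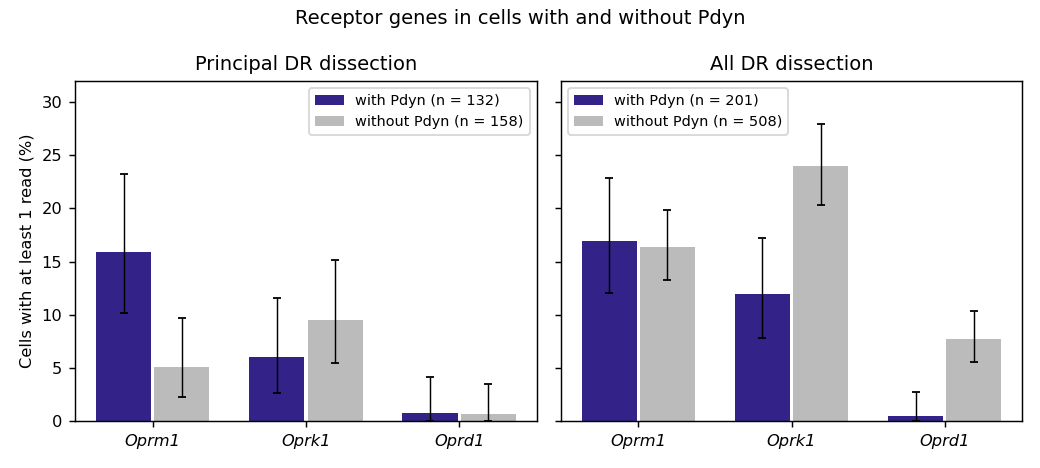
Share of cells with at least 1 read (%, vertical axis) of Oprm1, Oprk1 and Oprd1 in cells with Pdyn (dark) and without Pdyn (grey), for the Principal DR (left) and All DR (right) dissections. Error bars are exact 95% intervals. Oprm1 stands at 15.9% and 5.06% on the left, and Oprk1 at 11.9% and 24.0% on the right.

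The other ligands were rare. Penk, which encodes the enkephalin precursor, had a read in 16 Principal DR and 25 All DR cells. Of these 41 cells, 7 had Oprm1, 6 had Oprk1 and 0 had Oprd1, the receptor that prefers enkephalin, which allows up to 13.7% of the 25 All DR cells. Pnoc, the nociceptin precursor gene, had a read in 29 cells, and 28 of them had Oprl1, as nearly all cells do. Its All DR mean of 1.79 CPM rested on 1 cell at 1102 CPM and was 0.237 CPM without it. Oprk1 was read in 20.0% of 20 All DR cells with Pnoc and 20.6% of 689 without, at 1.54 and 4.65 CPM. Pomc, the beta-endorphin precursor gene, was read in 484 cells but at a median of only 6.03 CPM in them. Of all genes 3.15% passed 2-fold with Penk and 4.06% with Pnoc, where sets are small, and 0 and 1 of the 4 receptors, the latter Oprk1. At 10 CPM of Pnoc, the log2 ratio of Oprk1 was -0.55. Without plate SER63 or SER55, Oprk1 with Penk was at -1.44 or -1.12, and Oprm1 with Pnoc was at -1.01 without SER63.

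The genes through which the receptors act were present in cells with and without them. The lists held 46 genes that had values, and 45 were read in at least 3 cells. They cover ligands, G proteins, channels, adenylyl cyclases, receptor kinases and arrestins, RGS proteins, and the enzymes that make and break peptides. Gnai3, an inhibitory alpha subunit gene, was also listed but had no values in the deposited data. All DR cells with each sparse receptor were compared with the other All DR cells. With Oprm1, 3 of the 45 were at least 2-fold higher and 1 lower, with Oprk1 0 and 5, and with Oprd1 0 and 6. Over all genes tested, 1.01%, 0.905% and 3.11% passed 2-fold in the same comparisons. Only 11518 of those 25522 genes had a mean over 2 CPM, and the added 1 CPM holds down the ratios of the scarcer ones. The lists were not matched to all genes in level, so these shares do not show an excess in the lists. The median log2 ratio over the 45 was -0.01, -0.05 and -0.05, and over all genes -0.01, -0.01 and -0.02.

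None of the Gi and Go alpha subunit genes, channel genes or kinase and arrestin genes that had values passed 2-fold with a receptor. Gnai2, an inhibitory alpha subunit, was at 265, 275 and 284 CPM in cells with Oprm1, Oprk1 and Oprd1, against 256, 253 and 256 CPM without. Kcnj9, a subunit of the potassium channels that these receptors open, was at 61.1 CPM with and 41.1 CPM without Oprk1, and Kcnj3 at 7.63 CPM with and 14.0 CPM without Oprm1. Of the genes past 2-fold, some lay on opposite sides for Oprm1 and the other receptors. Adcy2, an adenylyl cyclase, was at 73.1 CPM with and 28.0 CPM without Oprm1, but 19.2 and 39.6 CPM for Oprk1 and 10.1 and 37.0 CPM for Oprd1. Rgs10, which shortens Gi signals, was at 50.5 and 20.9 CPM for Oprm1, 13.6 and 28.9 CPM for Oprk1 and 6.44 and 26.9 CPM for Oprd1.

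Adcy8, another adenylyl cyclase, was at 1.05 CPM with and 4.27 CPM without Oprk1 and at 1.18 and 3.75 CPM for Oprd1. Rgs4 had 0 reads in the 40 Oprd1 cells and 3.55 CPM in the others. Pdyn was at 70.6 and 32.0 CPM for Oprm1, 15.6 and 44.3 CPM for Oprk1 and 0.0676 and 40.7 CPM for Oprd1. Pnoc was the remaining gene past 2-fold in each comparison, and the cell at 1102 CPM was among the cells without the receptor.

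The genes whose pattern over all 999 cells was most like each receptor were ranked by Pearson correlation of ln(CPM+1), among genes with a mean over 2 CPM. The points are cells that share plates and depth, so these are descriptions with no p. For Oprm1 they were Tacr3 (r = 0.41), Pdlim5, a scaffold protein of the cytoskeleton (0.37), Tmeff2, a membrane protein (0.35), Elmo1, which acts in cell movement (0.30), and Cdh8, a cadherin (0.28). Tacr3 had a read in 29.1% of All DR cells with Oprm1 and 3.55% of the others. Of 55 All DR cells with Tacr3, 34 had Oprm1, 20 of them among the cells with 5 or more caudal markers. Outside those, 14 of 34 Tacr3 cells had Oprm1 (41.2%, 24.6 to 59.3%).

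For Oprk1 the genes were Wnt4, a secreted signal (r = 0.35), Chrna4, a nicotinic receptor subunit (0.30), Loxl1, a lysyl oxidase (0.30), Cmbl, a hydrolase (0.29), and Pth2r, a receptor of the parathyroid hormone family (0.28). Wnt4 was read in 77.4% of All DR cells with Oprk1 and 38.5% of the others, and Pth2r in 53.4% and 21.1%. For Oprd1 they were Piezo2 (0.36), Gpr139, an orphan G protein-coupled receptor (0.34), Zeb2 (0.31), Fbxl7, an F-box protein (0.30), and X9330158H04Rik (0.28). Gpr139 was read in 21 of the 40 All DR cells with Oprd1 (52.5%) and 8.07% of the others.

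Oprl1 was most like genes that nearly every cell held: Rrp1, which acts in ribosome assembly (r = 0.39), Ctbp1, a corepressor (0.38), Syn1, a synaptic vesicle protein (0.37), Usp5, a deubiquitinase (0.36), and Dusp26, a phosphatase (0.36). In the 8 All DR cells without Oprl1, Rrp1 and Ctbp1 were read in 75.0%, and Syn1, Usp5 and Dusp26 in 62.5%. The All DR cells with Oprl1 had each of them in 99.9 to 100%. Whether cells with poor libraries carry these correlations was not tested. Rgs19, the neighbour of Oprl1, had r = 0.14 with it, at a mean of 65.6 CPM in 951 cells with a read. Among the receptors themselves r ran from -0.05 for Oprm1 and Oprd1 to 0.06 for Oprm1 and Oprk1. Ipcef1 had r = 0.14 with Oprm1 and was read in 22.2% of All DR cells with Oprm1 and 9.46% of the others, and the part of the shared bases in this was not tested.

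Transcripts of other cell types were also read, in part at levels like those of the sparse receptors. The summed level of 6 oligodendrocyte genes had a median of 24.1 CPM over All DR cells (0 to 77749 CPM), with Mbp the most abundant. The median was 15.6 CPM in cells with Oprm1 (0 to 555 CPM), 24.9 CPM with Oprk1 (0 to 13757 CPM) and 29.8 CPM with Oprd1 (0 to 678 CPM), and all 6, 6 and 4 genes of the list had reads there. Astrocyte, microglia, endothelial and other-neuron lists had medians of 0 CPM in every set, as the sparse receptors do over all cells. The astrocyte list summed to a mean of 6.45 CPM over All DR cells, and Itm2a, the leading endothelial gene, was at 3.43 CPM in 17.1% of them and 5.02 CPM in 25.2% of Principal DR cells. The most abundant genes of these lists, Gja1, Tmem119, Itm2a and Th, were read in 4.27%, 0%, 6.84% and 4.27% of All DR cells with Oprm1, 2.74%, 0%, 8.90% and 3.42% with Oprk1, and 7.50%, 2.50%, 7.50% and 2.50% with Oprd1. Their part in the receptor values was not tested.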

How the data were processed

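Single tdTomato-positive cells were sorted into wells and made into Smart-seq2 libraries, read as pairs of 75 bases. The authors demultiplexed the reads with bcl2fastq 2.19.0.316, aligned them to mm10 (GRCm38) with STAR 2.6.1a, counted them on genes with HTSeq 0.11.2 without regard to strand, removed Y chromosome genes and deposited CPM. The version of their annotation is not given in the sources used here. Of 1536 labelled cells, 999 are in the table, and the other 537 were not analysed here. Each value was a whole multiple of 1 read within 0.001, so reads were recovered. Smart-seq2 reads carry no molecular identifiers, and intervals (exact Clopper-Pearson) cover counting error only. Cells were sorted singly, and no doublet caller was run. Sequences, positions and exon lengths are from GENCODE M21.

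Shares, mean CPM and ratios of means plus 1 CPM were obtained with pandas 2.3.3, SciPy 1.17.1 and NumPy 2.4.6 (Python 3.11.15), and Biopython 1.88 aligned the coding sequences. Plates were compared where each side had at least 3 cells. With 1 sample a dissection there was no test. The steps were checked on simulated data, with changes set only in genes of a higher mean than the sparse receptors. The simulated cells were split as the All DR cells are by Irx2. The check does not show how ratios of scarcer genes or of smaller sets behave. The members, markers and gene lists were chosen with earlier results of these data known. Genes named are the receptors, their ligands, the markers, genes beside or over a receptor, the 5 most alike genes of each, the most abundant gene of each list of other cell types and listed pathway genes past 2-fold. Gnai2, Kcnj9 and Kcnj3, and Tacr3 as a marker, were named after their values were seen. Gnai3 is named only because it had no values.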

Additional observations from a re-analysis of the deposited data

How the results depend on the processing

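A rule of at least 5 reads in place of 1 lowered the share of Oprm1 cells to 5.52% in the Principal DR and 11.8% in the All DR dissection, that of Oprk1 in All DR cells to 16.9%, and that of cells with 2 or more of the 4 receptors to 11.4% and 29.2%. A rule of 10 CPM gave 3.79% and 9.31% for Oprm1, 14.8% for Oprk1 in All DR cells, 0% and 2.82% for Oprd1, and 95.2% for Oprl1 in the Principal DR.

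Between the dissections, the log2 ratio of Oprm1 was 0.30 and that of Oprd1 0.19 as a difference of mean log2(CPM + 1), and Oprd1 was at 2.83 with a pseudocount of 0.1 CPM. Without cells with Irx2 or Zeb2, an alternative added after the data were seen, they were 0.17 and 0.015. With a pseudocount of 0.1 CPM, Oprd1 was at 3.17 with Zeb2 and -3.29 with Pdyn, and at -0.26 with Pdyn as a difference of mean logs. Without cells with 5 or more caudal markers, also added later, Oprm1 with Zeb2 was reversed, at -0.43. Markers at 10 CPM left 0% of Trh cells with Oprk1. Of the 5 genes most like Oprm1 and Oprd1, 3 and 3 were kept when every gene read in at least 3 cells was ranked, and 3 for Oprl1 when each plate was centred.

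Leaving out each plate in turn gave Oprk1 shares of 4.88 to 9.31% in the Principal DR, the lowest without SER13, and 0 to 2.94% in All DR cells with Trh, where 1 cell had a read. No other share moved by more than its spread over plates or its interval. For log2 ratios that crossed 2-fold without a plate, the values stand beside the results.

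Of 195 alternative values for the 11 log2 ratios past 2-fold, 194 had the same sign and 163 stayed past 2-fold. Most of these alternatives only left out 1 plate and kept most of the cells, so the counts say little about stability. As a difference of mean log2(CPM + 1), 10 of the 11 came under 2-fold. Besides those above, Oprk1 was then at 0.53 between the dissections, 0.38 with Slc17a8 in the Principal DR, -0.65 with Gad1 or Gad2, -0.72 with Zeb2 and -0.27 with Pnoc, Oprm1 at 0.21 with Zeb2 and 0.66 with Irx2, and Oprd1 at 0.63 with Zeb2, while Oprk1 with Irx2 stayed past it. Oprk1 with Zeb2 was at -0.99 and with Slc17a8 at 0.66 when both dissections were pooled, Oprd1 with Pdyn at -0.86, and Oprk1 with Pnoc at -0.61. As a mean over plates, Oprm1 with Zeb2 was at 0.74 and Oprd1 with Pdyn at -0.98. The 2 cells with Oprd1 in the Principal DR, and the sets with Penk, Pnoc or Nmbr of 25 cells or fewer, are at the limit of what the number of cells can show. No paired analysis was possible because the labels give no animals and each dissection is 1 sample.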
